A study of Triticum aestivum with 6 samples.

Results

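Plant roots respond to microbes by making pathogenesis-related (PR) proteins, small secreted or cytosolic proteins first found in infected tobacco leaves. PR-1 proteins belong to a secreted family that binds sterols, chitinases and beta-glucanases cut the chitin and glucan of fungal cell walls, and thaumatin-like proteins (PR-5) act on fungal membranes. PR-10 proteins are cytosolic and bind small hydrophobic ligands. Salicylate, jasmonate and abscisic acid (ABA) control different members of these families, and many chitinase and glucanase genes also serve in growing or dividing cells, where glucanases degrade callose.

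The genes described here were the 354 wheat genes, of 83219 in the table, whose protein name held the words pathogenesis-related protein, chitinase, thaumatin or glucan endo-1,3-beta-glucosidase and which had at least 10 estimated counts in at least 3 of the 6 libraries. Another 127 genes with such names fell below that count. The third-highest count was 10 in the members nearest the limit, TraesCS6B02G431100, TraesCS3A02G261700 and TraesCS4B02G190600, and 9.98 in TraesCS1B02G072500, the nearest gene outside it. By name they formed 49 PR-1 type genes, 21 PR-10 type genes, 51 thaumatin-like genes, 134 glucanases, 79 chitinases named after plant proteins and 20 genes with chitinase names taken from fungal entries. The names are best matches to 64 proteins of several species, not curated wheat names, so they leave out relatives under other names, such as a gene named zeamatin after the thaumatin-like protein of maize. The PR-10 type was set apart from background knowledge: the asparagus protein named pathogenesis-related protein 1, to which 20 genes were matched, and STH-21, with 1 gene, belong to the PR-10 family in spite of the first one's name.

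Roots of seedlings of the wild-type wheat line JW1 were sampled after 3 h in medium with 5 µM ABA, a stress hormone, and either 2 mM potassium nitrate (2N+ABA, 3 libraries) or 2 mM potassium chloride and 0 mM nitrate (0N+ABA, 3 libraries). All seedlings had germinated for 3 days, lost the endosperm, grown for 3 days with 2 mM nitrate and passed 2 days without nitrogen, so 2N+ABA roots were resupplied with nitrate after starvation, 0N+ABA roots were not, and both received ABA. Chloride replaced nitrate in 0N+ABA, and the effects of the ions cannot be told apart. Nothing in the labels says that the 3 libraries of a group had separate biological sources. The p-values here therefore speak of the spread among these libraries, part of which may be technical.

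One label names leaf tissue while the others name root. Of 166 leaf marker genes, 26 were at 0 TPM (a transcript level scaled to gene length and library size, comparable between genes) in every library, and their summed level was 403, 256 and 218 TPM in 2N+ABA and 319.9, 271 and 413 TPM in 0N+ABA. Of 7 endodermis marker genes 1 was at 0 in every library, and these root markers summed to 158 to 191 TPM in 2N+ABA and 117 to 198 TPM in 0N+ABA. Library totals ran from 16907317 to 17735564 estimated counts. In a principal component analysis 0N+ABA replicate 2 stood at -1.28 on the leading axis (42.1% of the variance), between the other 0N+ABA libraries at -63.8 and -74.1 and the 2N+ABA libraries at 38.8 to 59.9. On the next axis (25.1% of the variance) 0N+ABA replicate 2 stood at -79.0 and 2N+ABA replicate 3 at -17.7, and the other 4 libraries at 12.5 to 47.9. In whole roots, fewer cells of a type and less RNA per cell cannot be told apart.

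Of the 351 genes that could be tested, 14 rose and 1 fell in 2N+ABA against 0N+ABA, at an adjusted p under 0.05 by edgeR's quasi-likelihood test with Benjamini-Hochberg adjustment over 53862 genes. These are 3.99% and 0.285% of the 351, beside 1.67% of all tested genes that rose and 0.579% that fell. The 3 libraries of 2N+ABA lay above all of 0N+ABA in 54 of the 351 (15.4%, against 11.3% of all tested genes) and below them in 27 (7.69%, against 10.8%). The log2 fold changes, 2N+ABA over 0N+ABA, ran from -2.61 to 1.96 with a median of -0.04, and the median of all tested genes was -0.02. The 15 calls were 4 thaumatin-like genes, 5 plant-named chitinases, 5 glucanases (4 higher, 1 lower) and 1 PR-1 type gene. The calls depended on single libraries. Leaving out 0N+ABA replicate 2, which lay apart from its group, gave 37 higher (10.5%) and 35 lower (9.89%) of 354, against 5.19% and 3.19% of all genes tested then, and all 15 calls were among them. Leaving out 0N+ABA replicate 1 or 3 or 2N+ABA replicate 1, 2 or 3 left 2, 2, 2, 5 and 3 genes higher and 0 lower in each case. Calls among all 53862 genes dropped as well, from 898 higher to 329, 349, 251, 413 and 359 in the same order. Lower calls among them went from 312 to 96, 84, 32, 122 and 61. The loss of calls was thus not particular to the members. On all 6 libraries DESeq2 called 28 of the genes higher and 7 lower, beside 2.82% and 1.38% of all genes, and limma-voom called 14 and 1, beside 1.57% and 0.486%.

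**Figure D1:**
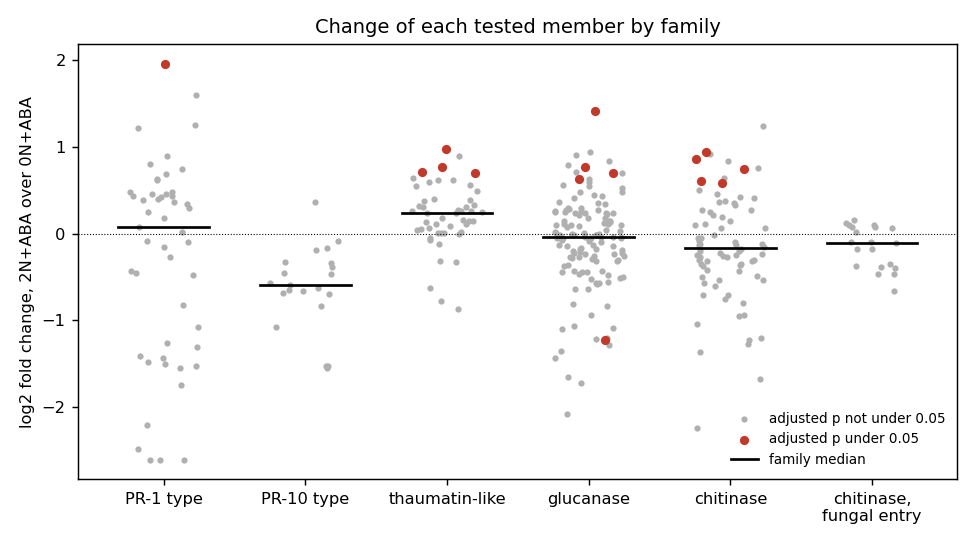
Log2 fold change of each of the 351 tested genes, 2N+ABA over 0N+ABA, by family; each point is a gene, red points passed the test, and black lines are family medians. The thaumatin-like median was 0.24 and the PR-10 type median -0.59, while the PR-1 type spread from -2.61 to 1.96.

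Among PR-1 type genes, 1 of 49 rose (2.04%, beside 1.67% of all tested genes). This was TraesCS6A02G345100, one of 8 genes on the chromosome 6 group whose best match is a PR-1 protein of the legume Medicago. It had 8.37, 7.01 and 13.2 TPM in 2N+ABA, against 2.00, 3.62 and 1.96 TPM in 0N+ABA, so that the groups did not overlap. Its log2 fold change of 1.96 (SE 0.307, adjusted p = 0.0185) was the highest of the 351. The call held without 0N+ABA replicate 2 or 2N+ABA replicate 2 and was lost without any of the other 4 libraries (adjusted p up to 0.085).

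The gene next to it by p, TraesCS6D02G327600, had 8.52, 3.79 and 11.5 TPM in 2N+ABA and 2.25, 3.6 and 2.22 TPM in 0N+ABA (log2 fold change 1.60, SE 0.380, adjusted p = 0.0757, and 0.0285 without 0N+ABA replicate 2). Its lowest 2N+ABA library stood just above the highest of 0N+ABA. All 8 genes of this match had positive log2 fold changes (0.38 to 1.96, median 1.01), 6 of them without overlap between the groups, and 5 rose without 0N+ABA replicate 2. Their summed level was 75.3, 60.3 and 92.8 TPM in 2N+ABA, against 44.9, 50.4 and 27.9 TPM in 0N+ABA. With the reads of the 8 genes added, the log2 fold change was 0.96 (adjusted p = 0.0719).

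The other PR-1 type genes, matched mostly to barley PR-1 proteins, held most of the family's RNA and had 0 calls by edgeR. Among all 49, the Medicago matches included, 12 genes were higher and 0 lower at an unadjusted p under 0.05, beside 8.62% and 7.77% of all genes. By DESeq2, 5 of the 49 rose and 0 fell. Of the 12 higher genes 6 were Medicago matches, as were all 5 that rose by DESeq2. The top gene by level was TraesCS7B02G105300, with 327, 345 and 81.2 TPM in 2N+ABA and 849, 57.9 and 501 TPM in 0N+ABA. The next, TraesCS7A02G198900, had 219, 249 and 142 TPM in 2N+ABA and 458, 109 and 311 TPM in 0N+ABA. In both, 2N+ABA replicate 3 and 0N+ABA replicate 2 were the low libraries of their groups, and the groups overlapped.

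Of the 49 PR-1 type genes 31 were lowest in those libraries (63.3%, beside 13.2% of all tested genes). Of the 8 Medicago matches 0 were, and their sums were highest in those libraries within each group. Summed over the 49 genes, PR-1 type transcripts came to 2071, 2493 and 1033 TPM in 2N+ABA, against 4045, 736 and 5382 TPM in 0N+ABA. The lowest library of 0N+ABA thus had less than any 2N+ABA library and the other 0N+ABA libraries had more than any. A gene was counted as widely spread when its highest library was at least 4-fold its lowest in 2N+ABA and again in 0N+ABA, with 0.5 TPM added, a criterion chosen after these values were seen. Of the 351 genes 29 (8.26%) were widely spread, beside 95 of all 53862 tested genes (0.176%). These 29 made up 30.5% of the 95, while the members were 0.652% of tested genes. They were 23 of the 49 PR-1 type genes, 4 thaumatin-like genes, 1 chitinase and 1 glucanase, and in the genes averaging at least 5 TPM they were 21 of 43 PR-1 type genes, beside 0.283% of all genes at that level.

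**Figure D2:**
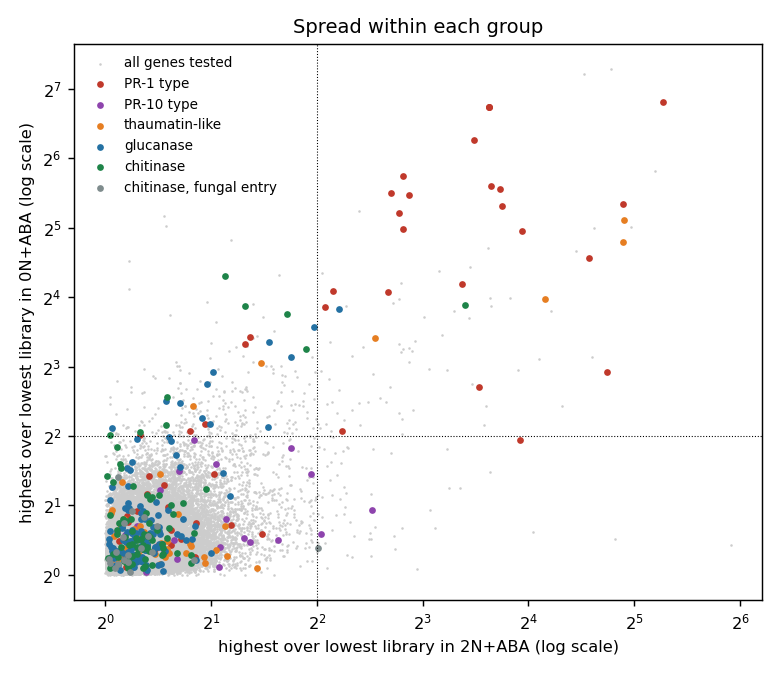
Highest over lowest library (with 0.5 TPM added) within 2N+ABA on the x axis and within 0N+ABA on the y axis, both on log scales, for all tested genes in grey and the members by family; dotted lines mark 4-fold. The 29 genes above 4-fold on both axes were mostly of the PR-1 type, with 23.

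All 29 were lowest in 2N+ABA replicate 3 within their group and in 0N+ABA replicate 2 within theirs, as were 86 of the 95 widely spread genes. The highest 2N+ABA library was replicate 2 in 28 genes and replicate 1 in 1, while the highest 0N+ABA library was replicate 1 in 12 and replicate 3 in 17. None of the 29 was called by edgeR in 2N+ABA against 0N+ABA (adjusted p = 0.339 to 0.998), 0 had an unadjusted p under 0.05, and 0 were called by DESeq2 or limma-voom. Genes chosen for a wide spread within both groups can hardly pass such tests. The lack of calls among the 29 therefore does not show that they were unchanged by nitrate. The same libraries were the lowest in leaf marker sums given above, at 218 and 271 TPM. Of 90 tested leaf marker genes 38 (42.2%) were lowest in both, beside 13.2% of all tested genes. Endodermis marker sums were not lowest in these libraries, with 158, 191 and 188 TPM in 2N+ABA and 117, 198 and 118 TPM in 0N+ABA. Any part of such differences in the spread was not tested.

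The widest spread was that of TraesCS5A02G439900, a PR-1 gene of barley type singled out for it. It had 3.57, 18.8 and 0 TPM in 2N+ABA and 30.7, 0.22 and 80.4 TPM in 0N+ABA, so the low library of each group had almost none of the transcript that its partners had. TraesCS5A02G183300, also chosen after its values were seen, was the one gene with its 2N+ABA peak in replicate 1, with 83.8, 75.9 and 2.34 TPM in 2N+ABA and 84.1, 1.58 and 41.2 TPM in 0N+ABA. The lowest log2 fold change of the 351 belonged to 3 genes with no assigned chromosome, TraesCSU02G076600, TraesCSU02G202900 and TraesCSU02G233000, whose counts were identical in every library. Each had 17.1, 34.3 and 2.31 TPM in 2N+ABA and 71.1, 2.09 and 277 TPM in 0N+ABA (log2 fold change -2.61, SE 1.22, adjusted p = 0.339, and 0.0309 without 0N+ABA replicate 2). They may be 1 gene in copies, and how reads were shared out among them, as among other near-identical wheat genes, is not known.

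**Figure D3:**
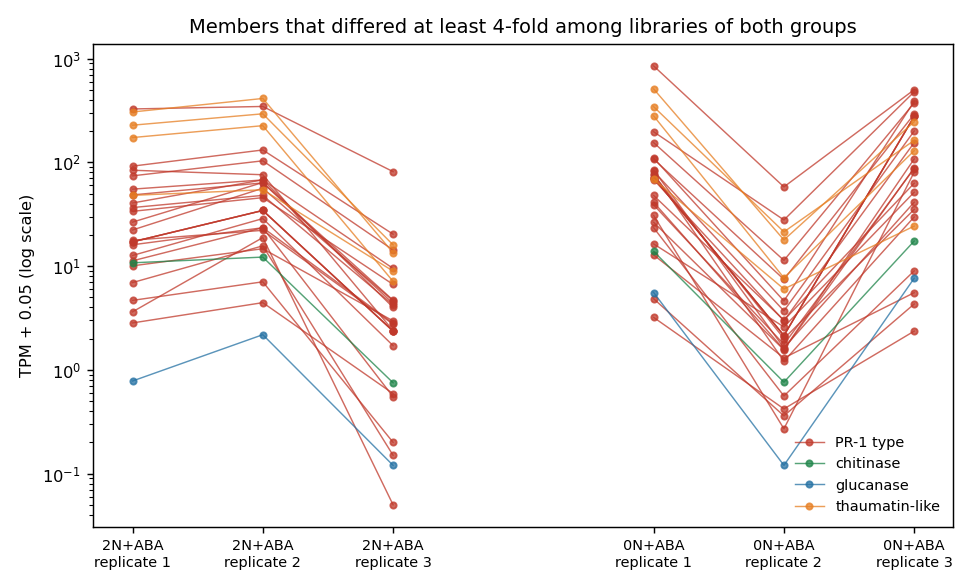
TPM (log scale, 0.05 added) in each library for the 29 genes that differed at least 4-fold among libraries of both groups; a line joins the values of 1 gene within a group, coloured by family. All lines dip at 2N+ABA replicate 3 and at 0N+ABA replicate 2.

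By matched protein, widely spread PR-1 type genes were 12 of 14 matched to barley PR-1, 9 of 13 matched to PRB1-3, 2 of 11 matched to PRB1-2 and 0 of 8 matched to the Medicago protein. By the gene IDs they were 17 of 19 on the chromosome 5 group, 2 of 12 on group 7, 0 of 12 on group 6 and 4 of 5 without a chromosome. On chromosome 5B, 12 PR-1 type genes between TraesCS5B02G442600 and TraesCS5B02G443800 follow one another in ID order, and 11 of them were widely spread. Within that run, TraesCS5B02G443700 had 91.8, 131 and 20.2 TPM in 2N+ABA and 197, 27.8 and 478 TPM in 0N+ABA. All 12 were lowest in the same library of each group, their log2 fold changes ran from -1.75 to 0.45, and the smallest unadjusted p was 0.138. The spread was small in TraesCS7B02G104900, matched to PRB1-2 and near TraesCS7B02G105300 in ID order, which had 235, 237 and 217 TPM in 2N+ABA and 276, 197 and 236 TPM in 0N+ABA.

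The count of widely spread genes depended on the criterion. At 2-fold it was 48 genes (13.7%, 27 of the PR-1 type) beside 1.15% of all genes, and at 8-fold 16 genes (4.56%, 12 of the PR-1 type) beside 0.065%. With 0.1 TPM added in place of 0.5 it was 33 genes (9.4%) beside 0.349%.

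PR-10 type genes had 0 calls by edgeR, but 20 of 21 log2 fold changes were negative, with a median of -0.59. Lower values had an unadjusted p under 0.05 in 6 genes (28.6%, beside 7.77% of all tested genes), and higher values in 0 (beside 8.62%). Summed over the 21 genes the level was 648, 622 and 633 TPM in 2N+ABA, against 1055, 699 and 1065 TPM in 0N+ABA. The 2N+ABA libraries were all below those of 0N+ABA, and 0N+ABA replicate 2 was the nearest to them. DESeq2 called 2 of the 21 lower, beside 1.38% of all genes. Without 0N+ABA replicate 2, 4 of the 21 fell by edgeR, beside 3.19% of all genes tested then.

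The most abundant of them, TraesCS4D02G189200, had 148, 127 and 155 TPM in 2N+ABA and 258, 165 and 268 TPM in 0N+ABA, without overlap (log2 fold change -0.63, SE 0.177, adjusted p = 0.119, and 0.00363 without 0N+ABA replicate 2). TraesCS2A02G476700 had 2.73, 0.80 and 2.42 TPM in 2N+ABA and 6.91, 6.43 and 4.61 TPM in 0N+ABA (log2 fold change -1.53, SE 0.364, adjusted p = 0.0761, and at lowest 0.0554 with a library left out). The one gene with a positive value, TraesCS5A02G013500, had 2.15, 0.76 and 2.76 TPM in 2N+ABA and 1.95, 1.27 and 1.34 TPM in 0N+ABA, and its groups overlapped. The STH-21 gene, TraesCS5A02G090600, stood apart from the asparagus matches in its spread. It had 111, 139 and 40.8 TPM in 2N+ABA and 197, 57.5 and 206 TPM in 0N+ABA, low in the same libraries as the PR-1 type genes (adjusted p = 0.647). With the reads of all 27 asparagus matches added, the 20 members and those below the count limit, the log2 fold change was -0.54 (edgeR adjusted p = 0.0867).

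**Figure D4:**
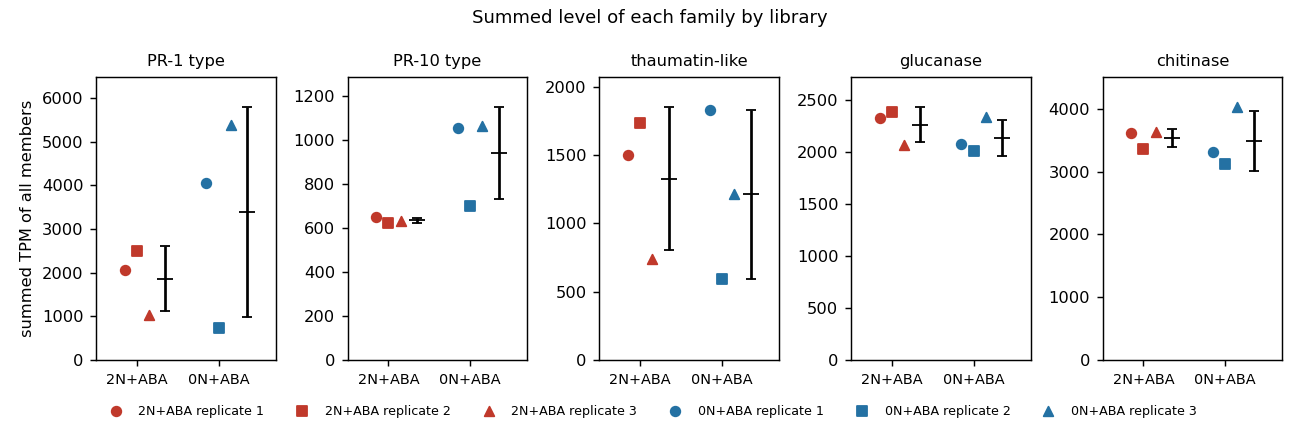
Summed TPM of all genes of each family in each library; points are libraries, and bars to their right are mean ± SD of the 3 libraries of a group. PR-10 type sums did not overlap (622 to 648 TPM in 2N+ABA, 699 to 1065 TPM in 0N+ABA), while PR-1 type sums ran from 736 to 5382 TPM within 0N+ABA.

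Among the thaumatin-like genes 4 of 50 tested rose (8%, beside 1.67% of all tested genes) and 0 fell (beside 0.579%). Of the log2 fold changes 41 were positive, and the median was 0.24. The groups did not overlap in 12 genes with 2N+ABA higher (24%, beside 11.3% of all tested genes) and in 1 with 2N+ABA lower (2%, beside 10.8%). Of the 4, 3 belonged to a group of 5 genes matched to the thaumatin-like protein of kiwifruit. TraesCS5B02G015700 had 121, 172 and 116 TPM in 2N+ABA, against 64.2, 76.7 and 76.8 TPM in 0N+ABA (log2 fold change 0.97, SE 0.188, adjusted p = 0.0389). TraesCS5B02G015500 had 107, 105 and 90.4 TPM in 2N+ABA, against 63.8, 57.6 and 71.0 TPM in 0N+ABA (0.71, SE 0.125, adjusted p = 0.0291). TraesCS5B02G016100 had 47.9, 60.9 and 50.2 TPM in 2N+ABA, against 35.5, 30.7 and 36.3 TPM in 0N+ABA (0.69, SE 0.140, adjusted p = 0.0459). In each of the 3 genes, which lie near one another on chromosome 5B by ID, every 2N+ABA library was above every 0N+ABA library.

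The same was true of all 5 kiwifruit matches, with log2 fold changes of 0.61 to 0.97. Together they had 384, 430.3 and 345 TPM in 2N+ABA, against 223, 220.5 and 264 TPM in 0N+ABA. Since reads may be split among such similar genes, counts were also added up per matched protein, and on that scale the kiwifruit group had 235 ± 31.3 CPM (counts scaled to library size) in 2N+ABA and 140 ± 14.6 CPM in 0N+ABA (SD, n = 3 each, log2 fold change 0.75, edgeR adjusted p = 0.0277). The fourth gene that rose, TraesCS5B02G485700, matched to a pear protein, had 8.85, 7.59 and 6.79 TPM in 2N+ABA, against 3.95, 4.80 and 5.36 TPM in 0N+ABA (0.77, SE 0.159, adjusted p = 0.0499). All 4 calls held without 0N+ABA replicate 2, and that of TraesCS5B02G015500 also without 2N+ABA replicate 3. They were lost without any other library, with adjusted p up to 0.199.

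The 4 thaumatin-like genes matched to a rice protein were all widely spread, and they included the most abundant genes of the family. TraesCS4A02G498000 had 305, 412 and 13.4 TPM in 2N+ABA and 509, 17.8 and 246 TPM in 0N+ABA, and its log2 fold change was 0.01 (SE 1.15). TraesCSU02G146600 had 228, 293 and 15.9 TPM in 2N+ABA and 343, 21.3 and 163 TPM in 0N+ABA, again low in 2N+ABA replicate 3 and 0N+ABA replicate 2. The sum over the family, these genes included, was 1504, 1737 and 737 TPM in 2N+ABA and 1828, 591 and 1218 TPM in 0N+ABA, and its groups overlapped. On the lower side, TraesCS5A02G018300, matched to an oat protein, had 38.9, 41.7 and 29.1 TPM in 2N+ABA and 107, 38.5 and 64.3 TPM in 0N+ABA (-0.87, SE 0.328, adjusted p = 0.235, and 0.0177 without 0N+ABA replicate 2). TraesCS7D02G272100 had 4.02, 3.82 and 3.98 TPM in 2N+ABA and 4.60, 3.54 and 7.18 TPM in 0N+ABA (adjusted p = 0.576).

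Of 133 glucanases tested, 4 rose (3.01%, beside 1.67% of all tested genes) and 1 fell (0.752%, beside 0.579%), and the median log2 fold change was -0.04. Among the 40 with names of secreted defence-type enzymes (the barley isoenzymes GI to GVI and the wheat, banana and acidic maize enzymes) 3 rose (7.5%) and 0 fell. Among the other 93 tested 1 rose (1.08%) and 1 fell (1.08%). Summed over the family, the level was 2324, 2391 and 2072 TPM in 2N+ABA and 2075, 2008 and 2337 TPM in 0N+ABA, which overlapped.

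TraesCS1D02G430700, matched to Arabidopsis glucan endo-1,3-beta-glucosidase 3, was the clearest call. It had 20.3, 14.2 and 18.4 TPM in 2N+ABA, against 6.46, 7.17 and 6.85 TPM in 0N+ABA, with every 2N+ABA library well above every 0N+ABA library. Its log2 fold change was 1.42 (SE 0.132, adjusted p = 0.00168), and it alone of the 15 passed with any 1 library left out (adjusted p = 0.00125 to 0.0152). The other 5 genes of that match did not rise, with log2 fold changes down to -1.21.

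Both of the top GI genes, the barley isoenzyme I type, rose. TraesCS3D02G481400 had 247, 258 and 204 TPM in 2N+ABA, against 141, 166.5 and 124 TPM in 0N+ABA (log2 fold change 0.77, SE 0.157, adjusted p = 0.0477). TraesCS3A02G486000 had 121, 125 and 102 TPM in 2N+ABA, against 82.7, 72.2 and 78.1 TPM in 0N+ABA (0.63, SE 0.126, adjusted p = 0.0439). In all 4 GI genes the groups did not overlap (median log2 fold change 0.70). The reads of all 6 genes of that match, including those below the count limit, were also added. The level was then 451 ± 63.3 CPM in 2N+ABA and 273 ± 20.9 CPM in 0N+ABA (SD, n = 3 each, log2 fold change 0.72, edgeR adjusted p = 0.0293). A GV gene, TraesCS3D02G512300, rose too, with 54.6, 59.1 and 49.2 TPM in 2N+ABA, against 34.6, 32.4 and 35 TPM in 0N+ABA (0.69, SE 0.120, adjusted p = 0.0266). These 3 calls held without 0N+ABA replicate 2 and were lost without any other library (adjusted p up to 0.186).

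The one gene that fell was TraesCS3B02G278400, matched to Arabidopsis glucosidase 14. It had 1.49, 1.20 and 1.24 TPM in 2N+ABA, against 2.65, 3.88 and 3.09 TPM in 0N+ABA (log2 fold change -1.23, SE 0.226, adjusted p = 0.0328). This call too held without 0N+ABA replicate 2 and with no other library left out (adjusted p up to 0.134). Of 6 genes matched to Arabidopsis glucosidase 12, all had negative values (median -0.67) and 0 were called by edgeR, with 4 lower at an unadjusted p under 0.05, 2 lower by DESeq2 and 3 lower without 0N+ABA replicate 2. Among them TraesCS6D02G305000 had 8.11, 6.80 and 7.53 TPM in 2N+ABA and 11.2, 10.9 and 10.1 TPM in 0N+ABA (-0.47, SE 0.104, adjusted p = 0.0604). TraesCS2B02G241300, chosen after its values were seen, had 4.02, 3.82 and 3.96 TPM in 2N+ABA and 12.7, 5.28 and 13.4 TPM in 0N+ABA (-1.35, SE 0.306, adjusted p = 0.0659, and 0.000177 without 0N+ABA replicate 2).

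Other defence-type glucanases differed in direction and 0 passed by edgeR. Of 11 GIII genes 1 had a positive log2 fold change and the median was -0.43, with 2 lower at an unadjusted p under 0.05 and 0 by DESeq2. All 5 GVI genes were positive with a median of 0.52, with 1 higher at an unadjusted p under 0.05 and 1 by DESeq2. Without 0N+ABA replicate 2, 4 GIII genes fell and 3 GVI genes rose, beside 3.19% and 5.19% of all genes tested then. The most abundant glucanase, TraesCS4A02G175900, named after a wheat enzyme, had 205, 228 and 166.9 TPM in 2N+ABA and 160.2, 175 and 259.6 TPM in 0N+ABA (log2 fold change 0.07, SE 0.207). The 7 GII genes, of the barley isoenzyme II type, summed to 15.6, 28.4 and 13.8 TPM in 2N+ABA and 37.8, 3.25 and 34.7 TPM in 0N+ABA, and were thus low in the same libraries as the PR-1 type genes. The widely spread glucanase, TraesCS3A02G480400 of the acidic maize type, had 0.73, 2.13 and 0.07 TPM in 2N+ABA and 5.51, 0.07 and 7.58 TPM in 0N+ABA.

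Chitinases with plant names had 5 genes that rose (6.41%, beside 1.67% of all tested genes) and 0 that fell (beside 0.579%) of 78 tested. Even so, 49 of the 78 log2 fold changes were negative and the median was -0.17. Their summed level was 3610.0, 3367 and 3633 TPM in 2N+ABA and 3315, 3116 and 4022 TPM in 0N+ABA, and the groups overlapped. The call with the highest level was the single gene matched to a class III endochitinase, TraesCS4A02G173800. It had 410.3, 398 and 405 TPM in 2N+ABA, against 272, 279 and 292 TPM in 0N+ABA (log2 fold change 0.58, SE 0.101, adjusted p = 0.0277). The spread within each group was far smaller than the gap between them. The call was kept without 0N+ABA replicate 2 and lost without each other library (adjusted p up to 0.141).

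A further 3 of the 5 were among the 31 genes matched to the rice protein named chitinase CLP. TraesCS3A02G468500 had 43.0, 45.9 and 50.0 TPM in 2N+ABA, against 29.9, 27.8 and 28.3 TPM in 0N+ABA (0.75, SE 0.101, adjusted p = 0.0106). It passed with each library left out except 2N+ABA replicate 3 (adjusted p = 0.0576). TraesCS3B02G510300 had 11.2, 9.39 and 12.9 TPM in 2N+ABA, against 5.80, 6.42 and 5.79 TPM in 0N+ABA (0.94, SE 0.128, adjusted p = 0.0106). It passed without 0N+ABA replicate 2 and without 2N+ABA replicate 2 or 3, and reached 0.0653 without another. TraesCS3B02G513500 had 7.54, 10.2 and 9.76 TPM in 2N+ABA, against 5.04, 6.04 and 4.64 TPM in 0N+ABA (0.86, SE 0.167, adjusted p = 0.0395). It passed without 0N+ABA replicate 2 alone, with adjusted p up to 0.14 otherwise.

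Within the CLP group 14 of 31 log2 fold changes were positive, so these rises were not shared by the whole group. Its TraesCS3D02G039400 was the most abundant of all 354 genes, with 536, 485 and 504 TPM in 2N+ABA and 365, 483 and 465 TPM in 0N+ABA. The groups came close without overlap, and the difference did not pass (0.27, SE 0.136, adjusted p = 0.384). The fifth chitinase that rose, TraesCS1B02G260700, matched to rice chitinase 2, had 9.96, 9.19 and 11.1 TPM in 2N+ABA, against 7.55, 6.18 and 6.85 TPM in 0N+ABA (0.60, SE 0.121, adjusted p = 0.0452). It passed without 0N+ABA replicate 2 and was lost without any other library (adjusted p up to 0.167).

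**Figure D5:**
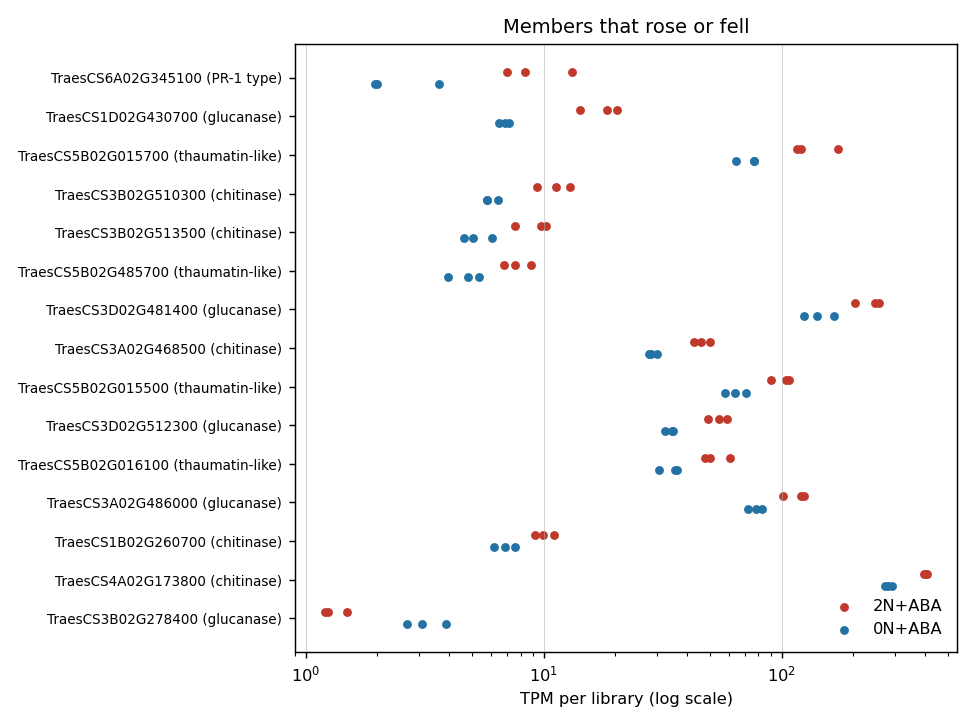
TPM per library (log scale) of the 15 genes that rose or fell, ordered by log2 fold change, with 2N+ABA in red above 0N+ABA in blue. In each of the 15 the groups do not overlap, and TraesCS3B02G278400 at the bottom is the one with 2N+ABA lower.

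Other chitinase groups had mostly negative values and 0 calls by edgeR. All 8 genes matched to rice chitinase 5 were negative (median -0.29), as were all 5 matched to chitinase-like protein 1, which in Arabidopsis serves in cell wall formation rather than defence (median -0.31). In each match 2 genes had an unadjusted p under 0.05, and DESeq2 called 0. Rice chitinase 8 matches had 4 of 5 negative values, 3 at an unadjusted p under 0.05, 0 called by DESeq2 and 3 that fell without 0N+ABA replicate 2. One of them, TraesCS1D02G207000, had 13, 10.8 and 11.3 TPM in 2N+ABA and 20.6, 15 and 15.9 TPM in 0N+ABA, without overlap (-0.50, SE 0.141, adjusted p = 0.121). The lowest p on this side was that of TraesCS6D02G199500, a chitinase 6 match with 1.45, 1.81 and 2.46 TPM in 2N+ABA and 3.12, 3.88 and 5.25 TPM in 0N+ABA (-1.04, SE 0.266, adjusted p = 0.0922). The widely spread chitinase, TraesCS3B02G293200, matched to a rye basic endochitinase, had 10.7, 12.2 and 0.70 TPM in 2N+ABA and 13.8, 0.71 and 17.4 TPM in 0N+ABA.

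The 20 genes whose chitinase names come from fungal entries varied little. None was called by edgeR or DESeq2, 1 was lower at an unadjusted p under 0.05, and the log2 fold changes ran from -0.66 to 0.16. TraesCS4D02G029900 had 76.5, 77.1 and 83.2 TPM in 2N+ABA and 77.2, 80.2 and 71.7 TPM in 0N+ABA, and TraesCS3B02G283700 had 66.5, 68.2 and 68.5 TPM in 2N+ABA and 64.1, 68.7 and 61.1 TPM in 0N+ABA. In both the groups overlapped. The lowest p values were those of TraesCS2D02G098200, with 4.98, 4.53 and 4.36 TPM in 2N+ABA and 6.05, 5.07 and 8.84 TPM in 0N+ABA (adjusted p = 0.291), and TraesCS2B02G114900, with 1.39, 1.39 and 0.93 TPM in 2N+ABA and 1.40, 1.68 and 2.30 TPM in 0N+ABA (adjusted p = 0.447).

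With counts added up per matched protein, 3 of the 64 proteins rose and 0 fell by edgeR, beside 1.28% and 0.425% of 23504 proteins tested. These were the class III endochitinase (439 ± 10.6 CPM in 2N+ABA and 294 ± 11.7 CPM in 0N+ABA, SD, n = 3 each), the kiwifruit thaumatin-like protein and the GI glucanase. Left-out libraries changed these counts: without 0N+ABA replicate 2 there were 8 higher and 8 lower, without 2N+ABA replicate 3 there were 2 higher, without 0N+ABA replicate 3 there was 1, and without each of the other 3 libraries there were 0.

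Other defence genes were read from lists of protein names. For comparison, 1.67% of all tested genes rose and 0.579% fell, and 5.19% and 3.19% did so without 0N+ABA replicate 2. At an unadjusted p under 0.05, 8.62% of all genes were higher and 7.77% lower by edgeR, while DESeq2 called 2.82% higher and 1.38% lower. Bowman-Birk and other proteinase inhibitors (PR-6) had 4 of 60 that rose and 0 that fell, led by TraesCS3B02G036400 at 56.7 ± 2.25 TPM in 2N+ABA and 24.1 ± 2.82 TPM in 0N+ABA (SD, n = 3 each, log2 fold change 1.29, adjusted p = 0.00202). Of 13 barwin-type genes (PR-4, chitin-binding proteins), 1 rose, a wheatwin-2 gene, TraesCS2A02G551000, with 191 ± 24.5 TPM in 2N+ABA and 116 ± 12.1 TPM in 0N+ABA (0.77, adjusted p = 0.0211). It passed without 0N+ABA replicate 2 or 2N+ABA replicate 2 and was lost without the other libraries (adjusted p up to 0.113). Another 5 of the 13 barwin-type genes were widely spread with the same low libraries as the PR-1 type genes, and 0 genes of the other 9 defence lists were. The spread was not particular to the members and these lists. Genes named germin-like protein 4-1, cinnamoyl-CoA reductase 1, peroxidase 4 and cytochrome P450 99A2 were also widely spread, with the same low libraries. The lists go by spelling: TraesCS5D02G479300, named as a BOWMAN_BIRK domain protein and so not in the list of inhibitors, was widely spread, with 54.2, 74.3 and 17.7 TPM in 2N+ABA and 77.0, 50.0 and 387 TPM in 0N+ABA. No defensin or thionin of 11 and no lipid-transfer protein of 58 was called by edgeR, with 4 and 5 higher at an unadjusted p under 0.05 and 0 and 2 higher by DESeq2. Without 0N+ABA replicate 2, 5 of the 11 and 20 of the 58 rose, and without any other library 0 did.

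Of 101 genes for jasmonate synthesis and its repressors 13 fell and 1 rose, and the falls were those of oxophytodienoate reductases and lipoxygenases, some of them 9S enzymes, which make other oxylipins. The gene that rose, TraesCS7B02G455300, was an oxophytodienoate reductase as well. The called reductases were matched to rice reductases 1, 4 and 5, and the names alone do not show that they serve in jasmonate synthesis. With 0N+ABA replicate 1, 2 or 3 or 2N+ABA replicate 1, 2 or 3 left out, the falls numbered 7, 25, 5, 1, 5 and 3, and the rise remained without 0N+ABA replicate 2 alone. TraesCS2D02G028600, an oxophytodienoate reductase, had 40.0 ± 3.78 TPM in 2N+ABA and 76.5 ± 0.89 TPM in 0N+ABA (SD, n = 3 each, -0.88, adjusted p = 0.00391), and passed with any 1 library left out. TraesCS2B02G040000, of the same kind, had 65.2 ± 2.89 TPM in 2N+ABA and 123 ± 10.5 TPM in 0N+ABA (-0.87, adjusted p = 0.00779, and 0.0726 without 2N+ABA replicate 1). Of 51 salicylate regulators 1 rose, the TGA factor gene TraesCS2D02G529000 (0.49, adjusted p = 0.0486), and 0 fell. That call was lost by DESeq2 (adjusted p = 0.064), by limma-voom (0.0527), without a count filter (0.0583) and without any library other than 0N+ABA replicate 2 (up to 0.181). None of 30 chitin perception, 38 callose synthesis or 45 phenylalanine ammonia-lyase genes was called by edgeR, with 0, 1 and 0 higher and 2, 8 and 11 lower at an unadjusted p under 0.05. The lower genes were 6.67%, 21.1% and 24.4% of their lists, beside 7.77% of all genes. DESeq2 called 1, 0 and 0 genes of these lists lower and 0 higher. Of 274 disease resistance genes 3 rose and 0 fell, among them TraesCS4A02G487500 and TraesCS4A02G491300, and without 0N+ABA replicate 2 these were 5 and 3, while without any other library they were 0 and 0. Taken over the 10 lists, 10 of 681 genes rose (1.47%, beside 1.67% of all genes) and 13 fell (1.91%, beside 0.579%). All 13 falls were in the jasmonate list. Without 0N+ABA replicate 2 these numbers were 43 and 31, beside 5.19% and 3.19% of all genes tested then.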

How the data were processed

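RNA-seq of poly(A)-selected root RNA was analysed from 6 libraries, 3 of 2N+ABA and 3 of 0N+ABA, grouped by their titles. The authors deposited estimated counts per gene, not normalized, and TPM per gene, per the file headers; FPKM was not used. HISAT and Bowtie2 are named without versions per the submitters' processing notes, and for the counter, build and annotation the sources used here give nothing. Another 2 columns, means of other groups, were left aside. The labels record no strand or molecular identifiers, so reads of overlapping or near-identical genes are uncertain and reads are not independent molecules.

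After rounding to whole numbers, the estimated counts went into edgeR 4.0.16 under R 4.3.3 (filterByExpr, TMM scaling, glmQLFit and glmQLFTest, no covariate) over the whole table. The filter kept 53862 genes with 99.61% of counts, and 3 of the 354 members fell below it (TraesCS3A02G261700, TraesCS4B02G190600 and TraesCS7A02G253800). Adjusted p is Benjamini-Hochberg's over the tested genes, and "rose" and "fell" mean an adjusted p under 0.05. Standard errors come from the quasi-likelihood F statistic. Groups were said not to overlap on TMM-scaled CPM. Alternatives were DESeq2 1.42.0 and its size factors, limma-voom 3.58.1, other count filters, a replicate block and each library left out. The scripts were tested on simulated data.

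The members and lists were chosen with earlier results of these data known. Named genes were those called, the 2 most abundant and the 2 with the smallest p in each direction per family, the extremes of fold change and up to 2 called genes per other list; genes named beyond that were chosen after their values were seen. Of the gene IDs, 0 matched the IWGSC CS RefSeq v2.1 gene table at hand, so no coordinates or sequences are given and chromosomes come from the IDs.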

Additional observations from a re-analysis of the deposited data

How the results depend on the processing

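Of the 15 calls, 15 were kept with DESeq2's size factors, by DESeq2, without a count filter and without 0N+ABA replicate 2, 13 by limma-voom and 12 with at least 5 CPM in 3 samples. DESeq2 called 28 members higher and 7 lower (PR-1 type 5 higher, PR-10 type 2 lower, glucanases 8 and 3, chitinases 9 and 2, other defence lists 19 higher, matched proteins 2 lower, all genes 1519 and 743). Limma-voom called 2 thaumatin-like genes higher. Without a filter, 3 members were lower (PR-10 type 1, glucanases 2) and 2 PR-1 type genes higher, while with at least 5 CPM 0 PR-1 type genes were higher. For same-numbered libraries of the groups, deviations from the group means had correlations of 0.0757, -0.23 and -0.22 for numbers 1 to 3. Deviations within a group depend on one another, so these values cannot decide whether the numbers pair the libraries. With a replicate block, 4 members were higher and 0 lower (PR-1 type 0, thaumatin-like 0, glucanases 2 and 0, chitinases 2, other defence lists 4 and 7, matched proteins 1, all genes 588 and 135), and the log2 fold change was -0.40 in TraesCS4A02G498000 and -0.22 in TraesCSU02G146600.

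With 1 library left out, members numbered 2 to 37 higher and 0 to 35 lower, PR-1 type 0 to 5 and 0 to 6, PR-10 type 0 to 4 lower, thaumatin-like 0 to 5 and 0 to 2, glucanases 1 to 17 and 0 to 14, chitinases 1 to 10 and 0 to 9, other defence lists 3 to 43 and 1 to 31, matched proteins 0 to 8 and 0 to 8, and all genes 251 to 2852 and 32 to 1755. The highest counts were those without 0N+ABA replicate 2. Uncalled log2 fold changes that turned ran from -0.66 to 0.99 in TraesCS4A02G498000 (-0.078 by limma-voom, -0.0054 with at least 5 CPM), -0.49 to 1.05 in TraesCSU02G146600, -0.065 to 0.31 in TraesCS4A02G175900, -0.84 to 0.022 in TraesCS7A02G198900 and -0.51 to 0.010 in TraesCS7D02G272100. The causes were not tested. With 3 libraries a group and 1 of them apart, differences near the size of the calls can be missed.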
